A study of Mus musculus with 44 samples.

Results

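Open chromatin beside olfactory and vomeronasal receptor genes was examined by ATAC-seq, in which a transposase cuts accessible DNA, in mouse models of the cerebellar tumor medulloblastoma. A region was included where the gene to its left or right in the region's name begins with Olfr, Vmn1r or Vmn2r. This gave 500 of 88981 regions (0.562%), beside 293 receptor genes, of which 197 are olfactory (Olfr), 36 are vomeronasal type 1 (Vmn1r) and 60 are vomeronasal type 2 (Vmn2r). The rule used names only and no measured value, but it was chosen with earlier results of these data known. It could reach only regions that the authors had listed. The 6 conditions were the GTS sources GTS1 and GTS2, both without a listed treatment, preGTS1 given DOX, preGTS1 given DMSO, GTML3 given DOX and GTML3 given DMSO, each in duplicate. A separate table held duplicates of the fractions labelled GFP and nonGFP, both of GTML origin, in which the same naming rule found 651 of 88258 regions. In GTML tumors MYCN is expressed from a transgene that needs a tetracycline-repressible activator, itself made from the Glt1 (Slc1a2) promoter of glia, so that doxycycline (DOX) switches MYCN off, and DMSO is the solvent control. GTS tumors arise in a related model driven from Sox9. The labels call every ATAC sample tumor tissue and do not say how many animals or cultures stand behind a duplicate.

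Olfactory receptors are odorant-binding G protein-coupled receptors and form one of the largest gene families of the mouse. Vomeronasal receptors of types 1 and 2 detect pheromones and related cues. Both kinds lie in clusters on many chromosomes. Each mature olfactory sensory neuron expresses a single olfactory receptor gene while the others stay in heterochromatin marked by methylation of histones H3 and H4. In olfactory neurons the factors Lhx2, Ebf and Ldb1 act at receptor promoters and at distant enhancers that make the choice, and outside the nose most of these clusters are silent.

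A pair of motifs known from receptor promoters were searched on both strands of RefSeq promoters of GRCm38.p6. Each of these promoters holds 250 bases before and 50 after its listed start. The homeodomain-type motif TAATNA was present in 68.2% of 1272 receptor promoters, in 24.8% of 31579 other promoters and in 26.5% of all 32851. The palindrome CCCNNGGG, bound by Ebf factors, was present in 4.17% of receptor promoters, in 14.1% of the others and in 13.7% of all. Receptor promoters had a median G+C content of 35.7%, against 53.3% in the others, and a median of 1 CpG against 8. Of the 13 receptor genes with a region within 1 kb of their start, 9 had a listed promoter. None of these 9 held CCCNNGGG. In Olfr190, Olfr357 and Olfr1495 the 50 bases after the listed start begin with ATG. Such windows may lie at the coding start and not at the transcription start, which was not tested. Whether receptor promoters lack CCCNNGGG can therefore not be read from these shares. The promoters of Olfr190 and Olfr357 are shown because their starts had the highest values among those with an entry, and that of Olfr1495 because it opens one of the largest loci. Capitals mark TAATNA on either strand, found at 2, 5 and 3 places, with matches allowed to overlap. Sequences run 5′ to 3′ on the gene's strand, with Olfr190 at chr16:59075029-59075328 (minus), Olfr357 at chr2:36996562-36996861 (plus) and Olfr1495 at chr19:13768094-13768393 (plus), all in GRCm38.p6. Region coordinates given from here on are those of the deposited table, which fit mm9, so the 2 kinds of coordinate cannot be set against each other.
Olfr190: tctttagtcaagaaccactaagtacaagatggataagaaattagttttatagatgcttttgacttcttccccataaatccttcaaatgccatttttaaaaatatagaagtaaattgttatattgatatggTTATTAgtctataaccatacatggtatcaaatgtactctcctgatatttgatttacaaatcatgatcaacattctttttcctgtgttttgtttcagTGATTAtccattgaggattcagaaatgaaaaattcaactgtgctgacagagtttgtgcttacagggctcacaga
Olfr357: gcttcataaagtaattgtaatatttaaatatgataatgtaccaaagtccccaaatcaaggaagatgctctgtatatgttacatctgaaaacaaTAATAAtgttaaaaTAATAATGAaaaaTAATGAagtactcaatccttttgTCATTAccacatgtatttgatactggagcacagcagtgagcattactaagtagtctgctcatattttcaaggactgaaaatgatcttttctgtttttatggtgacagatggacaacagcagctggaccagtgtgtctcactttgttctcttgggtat
Olfr1495: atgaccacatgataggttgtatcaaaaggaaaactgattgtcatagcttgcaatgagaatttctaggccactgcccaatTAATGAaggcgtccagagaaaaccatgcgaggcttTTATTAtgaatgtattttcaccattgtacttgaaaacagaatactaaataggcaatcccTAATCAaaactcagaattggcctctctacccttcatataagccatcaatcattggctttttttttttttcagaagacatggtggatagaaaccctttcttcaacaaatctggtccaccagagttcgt

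The deposited values are CPM, reads scaled to a common total over the listed regions. Whole reads recovered from them gave 1185496 to 3996828 reads for the GTS libraries, 5847531 to 7773324 for preGTS1, 827366 to 1748074 for GTML3 and 8964353 to 14953541 for the GFP and nonGFP fractions. Between duplicates the chi-square per degree of freedom was 1.88 to 2.05 in every pair, and in shallow libraries even counts outnumbered odd ones: replicate 1 of GTML3 under DOX had 11680 regions with 2 reads and 6289 with 3. Each pair is therefore read as 1 sample per condition, and both library values are given. The tests nevertheless entered each library as a replicate, so their SE and adjusted p rest on the spread within pairs. A region called at an adjusted p under 0.05 by limma differs between libraries of 2 sources, which need not hold for the conditions. Intervals on reads cover counting error only and are too narrow if fragments were counted more than once. In bulk samples a lower value per cell and fewer cells with an open region cannot be told apart. As a check of the labels, Mycn RNA lay at 5.54 to 6.13 log2 CPM in preGTS1 under DOX and 10.45 to 10.91 under DMSO, and at 4.80 to 5.07 in GTML3 under DOX and 8.42 to 8.69 under DMSO (3 samples each). Of 12 genes listed as markers of medulloblastoma and the granule lineage, 8 were in the RNA table of the lines, with Atoh1, Barhl1, Eomes and Gfap not listed, and in GTML3 Zic1 had 6 summed reads under DOX and 4 under DMSO and Sox2 had 9 and 14.

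The 500 regions were not one silent class. In 140 regions both neighbouring genes are receptors, 304 lie at the edge of a cluster away from gene starts, and 56 lie at the edge within 1 kb of the start of a gene of another kind. The median CPM over conditions was 2.32 in the regions between receptors, 3.39 in the edge regions away from starts and 40.8 in the edge regions at starts. All members together had a median of 3.43 CPM, against 3.73 CPM in all other regions. A mean of at least 10 CPM was reached by 109 members (21.8%), against 22.9% of other regions, but by 6 of the 140 regions between receptors (4.29%). Regions between receptors were also narrower, with a median width of 363.5 bases against 474 bases in the other regions. The 500 regions lay in 93 loci, where neighbours within 500 kb were joined, and the chromosomes with the highest counts were 7 (59), 17 (46), 11 (44), 10 (40) and 3 (40).

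The 10 regions with the highest mean CPM belonged mostly to neighbours of the clusters. Of these 10, 6 lay within 1 kb of the starts of Lnpep (an aminopeptidase), Ppp2r1a (the scaffold subunit of phosphatase PP2A), Mad2l1 (a spindle checkpoint protein), Txnrd3 (a thioredoxin reductase), Cldnd1 and 2610206C17Rik. The region 1114 bases from the start of Crlf2, a chain of the thymic stromal lymphopoietin receptor, was another. The highest of all, 13121 bases from Vmn2r123, lay on the unplaced sequence Un_random and averaged 406 CPM. It had 564 and 547 CPM in GTS1, 252 and 226 in GTS2, 638 and 653 in preGTS1 under DOX, 449 and 431 in preGTS1 under DMSO, 268 and 289 in GTML3 under DOX and 255 and 305 in GTML3 under DMSO. Of 500 members, 260 (52.0%) overlapped a region of the GFP table by at least 1 base, against 43.5% of other regions matched on CPM. The share was 92.9% at the edge starts, against 77.1% of matched regions, and 33.6% between receptors, against 33.5%.

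Member regions held 0.598% and 0.585% of the reads in GTS1, 0.647% and 0.657% in GTS2, 0.630% and 0.628% in preGTS1 under DOX, 0.598% and 0.596% in preGTS1 under DMSO, 0.764% and 0.777% in GTML3 under DOX, and 0.768% and 0.766% in GTML3 under DMSO. The 4 GTML3 libraries were the highest and did not overlap with any other library. With duplicates merged, the share under DMSO was 0.597% in preGTS1 and 0.767% in GTML3, a log2 ratio of -0.36. The ratio to GTML3 under DMSO was -0.37 for GTS1 and -0.23 for GTS2. The region at Crlf2 alone held 0.00519% and 0.00495% of reads in preGTS1 under DMSO and 0.0665% and 0.0652% in GTML3 under DMSO. Without it the 3 ratios were -0.24, -0.32 and -0.17. In the GFP table the members held 0.652% and 0.639% in GFP and 0.625% and 0.625% in nonGFP.

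Regions between receptors held 0.0447% and 0.0404% of reads in GTS1 and 0.0602% and 0.0632% in GTML3 under DMSO (exact 95% binomial intervals 0.0427% to 0.0468% and 0.0377% to 0.0432% in GTS1, 0.0566% to 0.0639% and 0.0595% to 0.0671% in GTML3). Their mean CPM was 1.40 and 1.49 times that of other regions matched on mean CPM in GTML3 under DMSO and 1.39 and 1.45 times under DOX. The same ratio was 0.823 and 0.766 in GTS1, 0.953 and 0.881 in GTS2, 0.775 and 0.758 in preGTS1 under DOX and 0.835 and 0.843 in preGTS1 under DMSO. In GTML3 under DMSO the median CPM was 1.72 and 1.80, against 1.14 and 1.20 in matched regions, where 1 read is 0.572 and 0.599 CPM. The mean there takes in single high regions, with 50.9 CPM between Olfr761 and Olfr129 and 28.7 CPM in a region between Olfr187 and Olfr190. How far single regions set the ratios of means was not tested. Matched here and below means other regions in the same of 20 bins of mean CPM. That mean is taken over the same 6 conditions, so ratios above 1 in some conditions tend to bring ratios below 1 in the others. Of all members, 88 (17.6%) had their highest value in GTML3 under DOX and 62 (12.4%) under DMSO, against 10.5% and 9.69% of matched regions. GTML3 libraries were also among the shallowest, and the part of depth in these shares was not tested.

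**Figure D1:**
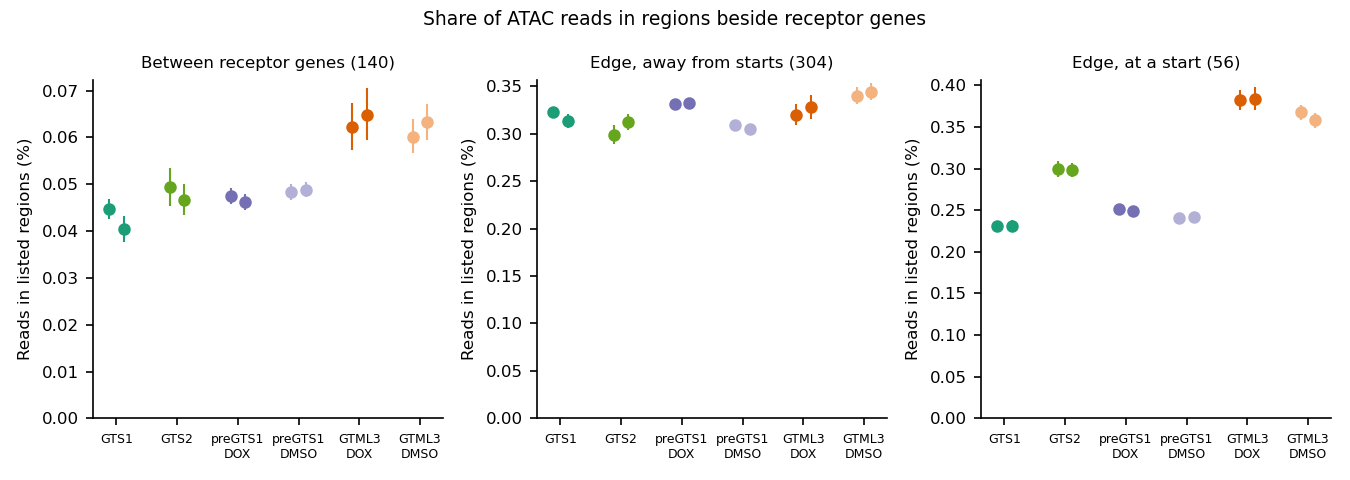
Share of ATAC reads (percent of reads in listed regions, vertical axis from 0) in the 140 regions between receptor genes, the 304 edge regions away from starts and the 56 edge regions at a start, by condition. Each point is 1 library with its exact 95% binomial interval; the 4 GTML3 points are the highest in the panels for regions between receptors and for edge regions at a start.

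Differences from GTML3 were asked for preGTS1 and for both GTS sources, and the 3 comparisons share the GTML3 libraries under DMSO. In preGTS1 under DMSO, 76 members were called higher and 75 lower than in GTML3, 30.2% of members against 27.9% of all regions (19.8% higher and 8.12% lower). Between receptors 18 were higher and 24 lower, so that 17.1% were lower against 3.57% of matched regions. At edge starts 5 were higher and 26 lower, so that 46.4% were lower against 29.1% of matched regions. The median log2 difference was -0.01 in members and 0.27 in matched regions, where the median of all regions was itself 0.28. With each library centred on its median, 38 members were higher and 132 lower, against 9741 higher and 14912 lower of all 88981 regions. Medians of the other regions by chromosome lay between -0.09 on chromosome X and 0.48 on chromosome 11.

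In GTS1, 66 members were called higher and 108 lower than in GTML3 under DMSO, against 18.4% and 16.7% of all regions (35.1% in either direction). Between receptors 17 were higher and 34 lower, so that 24.3% were lower against 10.1% of matched regions, and at edge starts 3 were higher and 25 lower, so that 44.6% were lower against 34.9% of matched regions. In GTS2, 83 members were higher and 101 lower, against 15.9% and 19.7% of all regions (35.6% in either direction). Between receptors 18 were higher and 31 lower in GTS2, so that 22.1% were lower against 13.3% of matched regions. At edge starts 9 were higher and 15 lower in GTS2, so that 26.8% were lower against 28.8% of matched regions. The median log2 difference of members was -0.07 for GTS1, against 0.06 in matched regions, and -0.33 for GTS2, against -0.19. With centred libraries the GTS2 split became 96 higher and 79 lower, against 17069 higher and 13926 lower of all regions. Between the 2 GTS sources, 96 members were higher in GTS1 and 98 lower than in GTS2, 38.8% against 39.6% of all regions (23.1% higher and 16.5% lower). After centring 66 were higher and 110 lower, against 16397 higher and 17360 lower of all regions. By chromosome, medians of the other regions lay between -0.50 (X) and 0.65 (8) for GTS1 against GTML3. They lay between -0.55 (X) and 0 (14) for GTS2 against GTML3 and between -0.11 (14) and 0.79 (8) for GTS1 against GTS2.

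By family, 91 regions lay beside Vmn2r genes, 58 beside Vmn1r genes and 351 beside Olfr genes. In preGTS1 against GTML3, 11 were called higher and 27 lower beside Vmn2r genes (29.7% lower, against 12.0% of matched regions), 3 higher and 8 lower beside Vmn1r genes (13.8% against 11.1%) and 62 higher and 40 lower beside Olfr genes (11.4% against 7.21%). In GTS1 the counts were 11 higher and 27 lower beside Vmn2r genes (29.7% lower, against 19.3% of matched regions), 5 and 15 beside Vmn1r genes (25.9% against 17.3%) and 50 and 66 beside Olfr genes (18.8% against 15.1%). In GTS2 they were 18 higher and 21 lower beside Vmn2r genes (23.1% lower, against 20.2% of matched regions), 8 and 12 beside Vmn1r genes (20.7% against 17.8%) and 57 and 68 beside Olfr genes (19.4% against 17.9%).

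**Figure D2:**
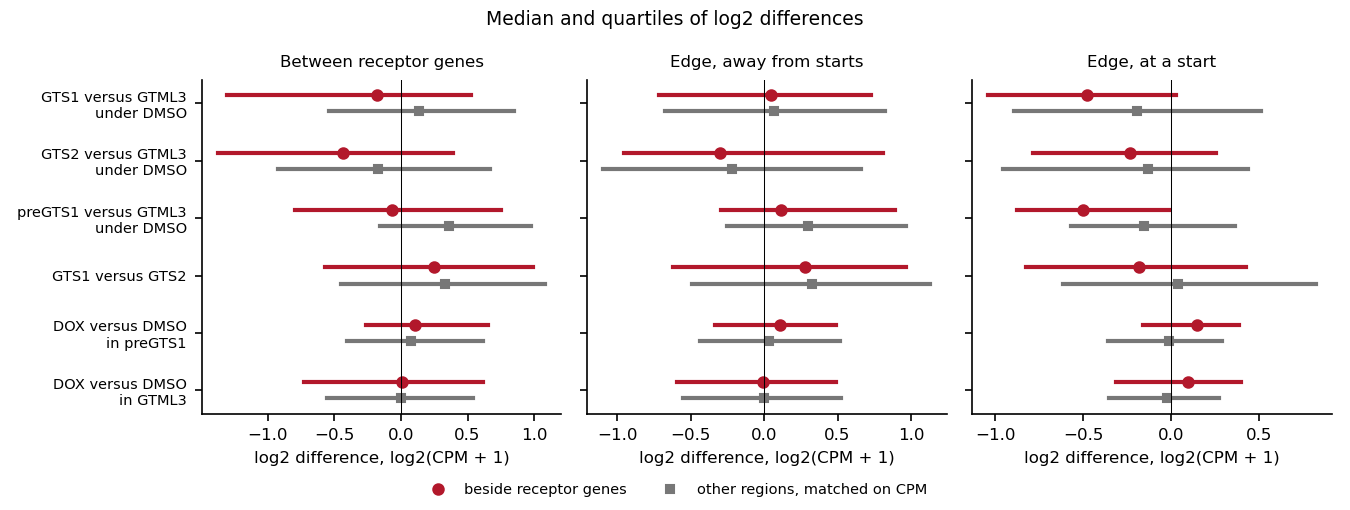
Median (point) and quartiles (line) of the log2 difference on the log2(CPM + 1) scale for regions beside receptor genes and for other regions matched on mean CPM, by comparison and class of region. In the comparisons with GTML3 under DMSO the members between receptors lie lower than their matched regions, with medians of -0.07 and 0.36 for preGTS1.

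The members did not move as one set, and single loci went in opposite directions. The 11 loci with at least 10 regions held 193 members. No rule set in advance chose which loci are described below. In the cluster between Lrrc55 and Olfr1024 on chromosome 2, with 16 regions beside 10 receptor genes in 680.0 kb, the summed level was 200.8 and 200.3 CPM in GTS2. It was 36.3 and 30.7 CPM in GTS1, 21.1 and 22.7 CPM in preGTS1 under DOX, 25.6 and 26.5 CPM in preGTS1 under DMSO, 19.6 and 20.5 CPM in GTML3 under DOX and 11.4 CPM in both GTML3 libraries under DMSO. GTS2 stood apart from all other libraries here. Over all regions, 15.9% were called higher and 19.7% lower in GTS2 than in GTML3 under DMSO. In the locus, 11 regions were higher and 0 lower. Their median difference was 2.52, against 0.00 over the 66 regions within 1 Mb outside the locus.

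Within this locus the region chr2:85275884-85276506, between Olfr994 and Olfr995, had 50.6 and 51.9 CPM in GTS2 and 0.5 and 0 CPM in GTS1, 0.148 and 0.257 CPM in preGTS1 under DMSO and 0 and 2.39 CPM in GTML3 under DMSO. The region 336 bases from the start of Fads2b, named for fatty acid desaturases, had 43.0 and 54.3 CPM in GTS2, 0.5 and 0 CPM in GTS1 and 0.572 and 0 CPM in GTML3 under DMSO. Farther along the chromosome, chr2:86766940-86767434 between Olfr1098 and Olfr1099 had 32.1 and 25.9 CPM in GTS2 and 0 in both GTS1 and both GTML3 libraries under DMSO. Against a floor of 3 reads over the group, it was at least 57.8-fold higher in GTS2 than in GTS1 and at least 32.5-fold higher than in GTML3. A region 31279 bases from Olfr49 on chromosome 14 had 37.1 and 48.9 CPM in GTS2, 1.0 and 0 CPM in GTS1 and 0 in all 4 GTML3 libraries, at least 50.1-fold higher than in GTML3 under DMSO. Of 7 regions beside Vmn2r118 on chromosome 17, 5 were called higher in GTS2 than in GTML3, against 15.9% of all regions. All 5 lay 290 to 32143 bases from the sialyltransferase gene St6gal2 and 147148 to 179001 bases from Vmn2r118. They were higher by 2.25 to 5.03 on the log2 scale.

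Other loci were low in GTS2. The region chr3:97100790-97102521, 70368 bases from Bcl9 (a coactivator of Wnt signalling) and 113447 bases from Olfr1402, had 1.69 and 0 CPM in GTS2, against 51.5 and 70.0 CPM in GTML3 under DMSO, and 52.3 and 37.9 CPM in GTS1. In the 18 regions between Zfp616 and Rap1gap2 on chromosome 11 the summed level was 16.0 and 19.9 CPM in GTS2, 77.1 and 69.5 CPM in GTS1 and 149.9 and 176.6 CPM in GTML3 under DMSO. There 0 regions were called higher and 6 lower in GTS2 than in GTML3, and 6 were higher and 0 lower in GTS1 than in GTS2. Over all regions, 15.9% were higher and 19.7% lower in the first comparison, and 23.1% and 16.5% in the second.

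GTML3 stood highest between Cldnd1 and Gabrr3 on chromosome 16, a locus of 12 regions beside 6 olfactory receptors. Summed levels were 84.1 and 97.4 CPM in GTS1, 145.1 and 127.9 CPM in GTS2, 110.2 and 118.5 CPM in preGTS1 under DOX, 116.1 and 108.7 CPM in preGTS1 under DMSO, 288.1 and 375.9 CPM in GTML3 under DOX and 312.9 and 328.0 CPM in GTML3 under DMSO. Over all regions, 16.7% were called lower than in GTML3 under DMSO in GTS1, 19.7% in GTS2 and 8.12% in preGTS1. In the locus, 10 of 12 regions were called lower in GTS1, 8 in GTS2 and 6 in preGTS1. The median differences were -2.05, -2.22 and -0.93, against -1.04, -0.79 and -0.16 over the 69 regions within 1 Mb outside. The locus chr10:128414627-129980133, with 29 regions beside 18 receptor genes of the Olfr and Vmn2r families, was the other way round. It summed to 373.7 and 382.3 CPM in preGTS1 under DMSO and 219.1 and 218.5 CPM in GTML3 under DMSO. In preGTS1, 12 of its regions were higher and 0 lower, against 19.8% and 8.12% of all regions. The other regions of chromosome 10 had a median log2 difference of 0.44 in this comparison, against 0.28 over all regions.

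**Figure D3:**
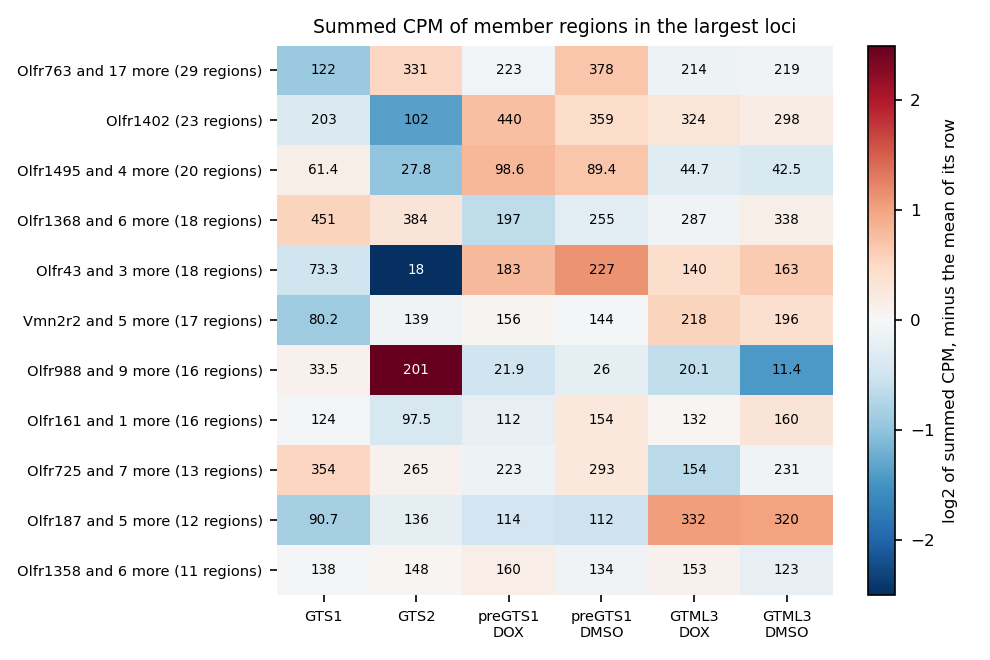
Summed CPM of the member regions in the 11 loci with at least 10 regions (rows, named by their first receptor genes, with the number of regions) in the 6 conditions with duplicates merged (columns). Numbers are summed CPM and color is its log2 minus the row's mean; the locus from Olfr988 is highest in GTS2 at 201 CPM and the locus from Olfr187 is highest in GTML3.

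Only 15 members lay within 1 kb of a receptor start itself, and most were weak: 3 of the 15 averaged over 2.2 CPM. The region chr16:59073927-59074329, 776 bases from the start of Olfr190 whose promoter is shown above, had 1.25 and 0.959 CPM in GTS1, 2.53 and 0.603 CPM in GTS2, 0.304 and 0.342 CPM in preGTS1 under DOX, 0.739 and 0.772 CPM in preGTS1 under DMSO, 20.6 and 14.5 CPM in GTML3 under DOX and 25.7 CPM in both GTML3 libraries under DMSO. Both GTML3 conditions lay above every other library. The log2 difference from GTML3 under DMSO was -3.93 ± 0.47 (SE) in preGTS1 and -3.64 ± 0.53 in GTS1 (limma, adjusted p 6.9e-10 and 5.58e-08). A second region, 407 bases from the same start, had 6.86 and 7.18 CPM in GTML3 under DMSO and 0 in all 4 GTS libraries. The region chr2:36852213-36852921, 236 bases from the start of Olfr357, had 6.19 and 2.42 CPM in GTML3 under DOX and 19.4 and 26.3 CPM under DMSO, and at most 2.4 CPM in any other library. Its difference under DOX in GTML3, -2.21 ± 0.74, did not pass the test (limma, adjusted p 0.18).

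Of the 15 regions at receptor starts, 4 were called higher and 0 lower under DOX in preGTS1, against 19.9% and 17.2% of all regions. They lay at Vmn1r23, Olfr1176, Olfr951 and Olfr91, the last 3 higher by 0.86 to 1.27 on the log2 scale. The region chr6:57876398-57876875, 149 bases from the start of Vmn1r23, had 5.47 and 5.81 CPM in preGTS1 under DOX and 0.887 and 0.257 CPM under DMSO, a log2 difference of 2.13 ± 0.31 (limma, adjusted p 1.24e-07). In GTML3 it had 2.06 and 0 CPM under DOX and 0 in both libraries under DMSO. The region 500 bases from Olfr308 on chromosome 7 had 11.5 and 3.84 CPM in GTS1 and at most 3.63 CPM elsewhere. None of the 13 receptor genes with a region at the start was among the 4 receptor genes in the RNA table of the lines.

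**Figure D4:**
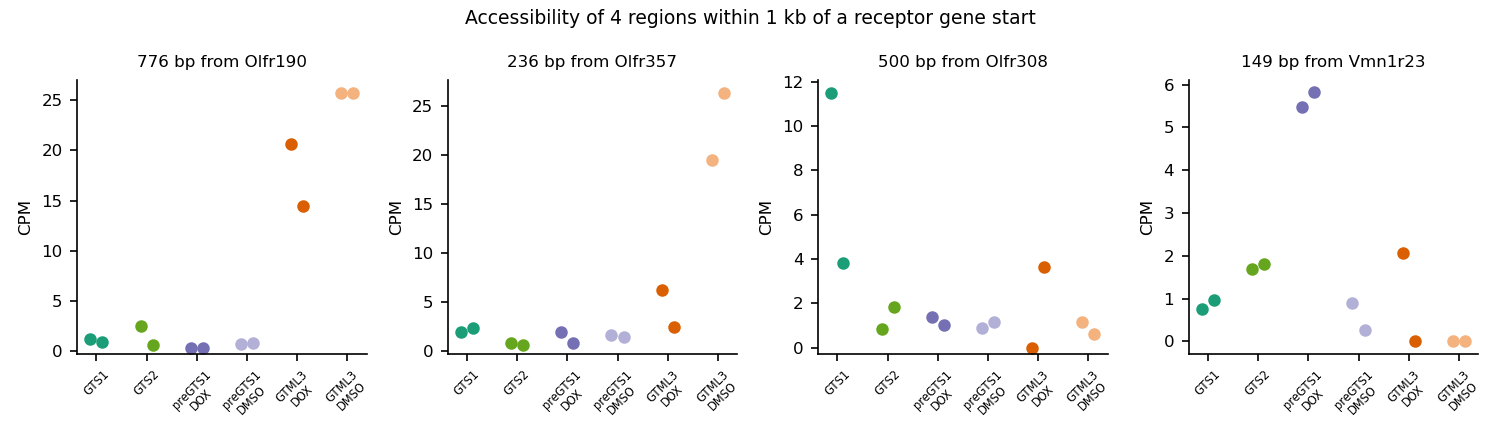
CPM in each library (points, 2 per condition) of 4 regions within 1 kb of a receptor gene start, with the distance from the region's centre to the start. The region at Olfr190 is high in the GTML3 libraries, that at Olfr357 in GTML3 under DMSO, that at Olfr308 in 1 GTS1 library and that at Vmn1r23 in preGTS1 under DOX.

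DOX was asked for its effect within each line. In preGTS1, 100 members were called higher and 69 lower under DOX, 33.8% against 37.1% of all regions (19.9% higher and 17.2% lower). The median difference was 0.11 in members and 0.04 in matched regions. Centring turned the split to 74 higher and 94 lower, against 13446 higher and 20539 lower of all regions. Without weights on the libraries 22 members were called, and the count over all regions in that fit is not given here. The largest gains were 11.0-fold to 23.7-fold in regions far from any start. A region 122869 bases from Gm15798 and 220301 bases from Olfr164 had 18.8 and 16.9 CPM under DOX and 0.739 and 0.772 CPM under DMSO (log2 difference 3.43 ± 0.31). A region 19857 bases from Kcnab1, a potassium channel subunit gene, had 20.2 and 15.9 CPM under DOX and 1.33 and 0.643 CPM under DMSO. A region 28155 bases from Olfr1402 had 23.9 and 19.5 CPM under DOX and 1.77 and 1.80 CPM under DMSO. Of the 23 regions between Bcl9 and Chd1l, a chromatin remodeller gene, 9 were called higher and 2 lower.

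The same chromosome 10 locus was lower under DOX in preGTS1. Its 29 regions summed to 220.2 and 225.2 CPM under DOX and 373.7 and 382.3 CPM under DMSO. Of these, 1 was called higher and 15 lower, with a median of -0.68, against -0.43 over the 88 regions within 1 Mb outside. Over all regions, 19.9% were called higher and 17.2% lower. The region 20610 bases from Neurod4, a proneural transcription factor gene, had 1.98 and 3.42 CPM under DOX and 21.4 and 18.1 CPM under DMSO (-2.52 ± 0.25). Between Olfr725 and Olfr726 on chromosome 14 a region had 2.43 and 1.54 CPM under DOX and 13.6 and 15.3 CPM under DMSO.

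In GTML3, 1 member was called higher and 1 lower under DOX, 0.4% against 0.536% of all regions (0.206% higher and 0.33% lower). The edgeR test on recovered reads called 2 members higher and 19 lower, against 3693 of 88981 regions in all. DESeq2 called 10 members, and limma without library weights called 16. Counts over all regions are not given here for these last 2 fits, so no excess in members can be read from them. The region called higher lies 40053 bases from Neurod4 and 29073 bases from Olfr827 (chr10:129676979-129677536). It had 7.23 and 15.7 CPM under DOX and 0 and 1.20 CPM under DMSO in GTML3, a log2 difference of 2.96 ± 0.64 (limma, adjusted p 0.0122), and 16.0 and 19.5 CPM under DOX and 25.3 and 26.5 CPM under DMSO in preGTS1. The region called lower, 24948 bases from Olfr1423 and 45949 bases from the oxysterol-binding protein gene Osbp, had 46.5 and 43.5 CPM under DOX and 98.4 and 86.8 CPM under DMSO (-1.02 ± 0.21, limma, adjusted p 0.00792). The test of the difference between the DOX responses of the lines called 4 members higher and 1 lower in preGTS1 than in GTML3, against 0.153% and 0.149% of all regions (0.302% in either direction).

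In the GFP and nonGFP fractions, 21 of 651 members were called higher and 4 lower in GFP, 3.84% against 3.59% of all regions (2.4% higher and 1.19% lower). Beside Vmn1r genes 7 of 81 were higher and 0 lower. A region 11029 bases from Folh1, a glutamate carboxypeptidase gene, and 76495 bases from Olfr292 had 5.13 and 6.24 CPM in GFP and 1.26 and 1.54 CPM in nonGFP, a log2 difference of 1.48 ± 0.25 (limma, adjusted p 2.47e-06). Both regions named beside Vmn1r3 and Tmem68 on chromosome 4 were higher in GFP, by 1.35 and 1.62. The region lowest in GFP by difference, 4207 bases from Olfr211, had 12.9 and 16.1 CPM in GFP and 21.8 and 21.5 CPM in nonGFP (-0.52 ± 0.13).

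Few receptor genes were listed in the RNA of the lines. Of 15926 genes in the table, 4 were receptors, and DOX and DMSO were compared in 3 samples each. Olfr74 had 229, 275 and 239 reads in preGTS1 under DOX and 163, 168 and 143 reads under DMSO, and 0 reads in all GTML3 samples. Its log2 CPM was 3.87 ± 0.21 under DOX and 2.89 ± 0.08 under DMSO (SD, n = 3 each), a difference that did not pass limma (adjusted p 0.0987) and passed edgeR. Vmn2r1 had 28, 44 and 76 reads in GTML3 under DOX and 21, 14 and 10 reads under DMSO, a log2 difference of 2.07 ± 0.36 (limma, adjusted p 0.000111). Vmn1r9 passed in both lines, with 25, 23 and 35 reads under DOX and 11, 13 and 15 reads under DMSO in GTML3, and 48, 17 and 22 reads under DOX and 5, 14 and 8 reads under DMSO in preGTS1. Thus 2 of 4 rose in GTML3 and 1 of 4 in preGTS1, against 65.8% of all genes called in GTML3 (34.5% higher, 31.4% lower) and 68.3% in preGTS1 (34.5% higher, 33.7% lower). Of the 6 regions beside Vmn2r1, 0 were called under DOX in GTML3, against 0.536% of all regions. The 6 log2 differences lay between -0.54 and 0.30. No region lay beside Olfr74 or Vmn1r9 in the region names.

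Marker lists of the sensory neurons were only partly present. Of 15 olfactory sensory neuron genes 7 were listed, and Omp, Cnga2, Rtp1, Rtp2 and Gng13 were not. Of the 7 listed genes, 5 rose and 1 fell in GTML3 and 4 rose and 0 fell in preGTS1, where 65.8% and 68.3% of all genes were called and against which the counts of the next lists also stand. Of 10 vomeronasal genes 6 were listed, without Trpc2, the channel of these neurons, and 4 rose and 0 fell in each line. These include genes that many neurons use, such as the G protein gene Gnao1, which rose by 1.97 ± 0.15 in GTML3 and 2.30 ± 0.15 in preGTS1 on the log2 scale. All 14 receptor choice factors were measured, and 5 rose and 3 fell in GTML3 and 9 rose and 2 fell in preGTS1. Ebf4 rose in both lines (3.12 ± 0.22 in GTML3, 2.57 ± 0.22 in preGTS1), and Ebf3 fell by 0.70 in GTML3 and rose by 1.40 in preGTS1. Lhx2 did not pass in either line. Lbr, the lamin B receptor that tethers heterochromatin, fell by 2.25 in GTML3 and by 2.2 in preGTS1.

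The list of heterochromatin and of H3K9 and H4K20 methylation held 32 genes, all measured. Of these, 12 rose and 16 fell in GTML3, against 34.5% and 31.4% of all genes, and 7 rose and 22 fell in preGTS1, against 34.5% and 33.7%. The median difference was -0.26 in GTML3 and -0.73 in preGTS1, against 0.05 and 0.04 over all genes. Hells, a remodeller needed for DNA methylation, was at 4.67, 4.32 and 4.42 log2 CPM under DOX and 7.44, 7.74 and 7.67 under DMSO in GTML3, and at 4.51, 4.20 and 4.58 under DOX and 7.73, 7.79 and 7.44 under DMSO in preGTS1. Uhrf1, which brings Dnmt1 to replicating DNA, fell by 3.18 in GTML3 and by 3.12 in preGTS1, and the H3K9 methyltransferase Suv39h2 fell by 2.4 and by 2.91. The de novo DNA methyltransferase Dnmt3a rose by 1.23 and 1.39, and the H3K9 demethylase Kdm4a rose by 0.96 and 0.87. Many listed genes are also tied to DNA replication, and DOX lowered Mycn in the same samples by 3.59 in GTML3 and 4.86 in preGTS1. The part of either in the member regions was not tested.

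**Figure D5:**
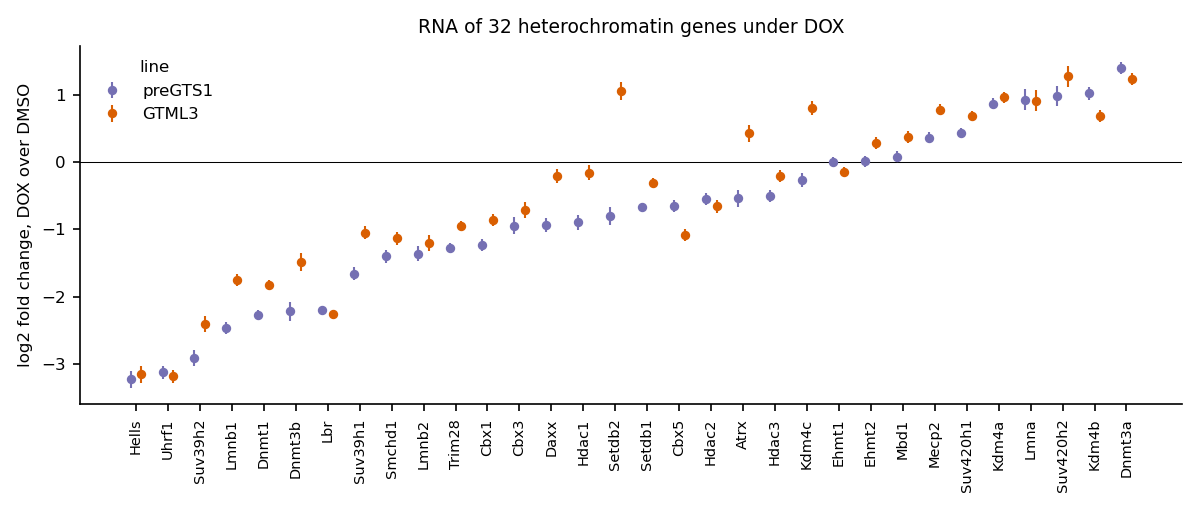
Log2 fold change of RNA under DOX over DMSO (point, with its SE) for the 32 genes of the heterochromatin list in preGTS1 and GTML3, ordered by the value in preGTS1. Hells and Uhrf1 are lowest in both lines, near -3.2, and Setdb2 has opposite signs.

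In the tumors, 6 GTS and 8 GTML, 21 receptor genes were listed among 16078. With the batch number of the column names as a term, limma called 0 of 21, against 0.056% of all genes (0.0498% higher and 0.00622% lower). An unadjusted p under 0.05 was found for 3 of them (Vmn2r-ps3, Olfr458 and Olfr455). The share of all genes under that unadjusted threshold is not given here, so no difference can be read from these 3. The receptor with the highest level was Olfr461, with a lowest, median and highest log2 CPM of 2.36, 4.32 and 6.03 in GTS and 1.32, 3.31 and 4.13 in GTML tumors. In single cells, receptor genes summed to 21.8 CPM of UMIs (exact 95% Poisson interval 20.9 to 22.7) in the library labelled fGTS2 and 23.5 CPM (22.6 to 24.5) in the library labelled GTML_SOX9GFP, over 91 and 95 listed receptor genes. With 1 library per source there is no test. Vmn1r43 and Olfr1369-ps1 were among the 5 highest in both, with 259 and 196 UMIs in fGTS2 and 327 and 306 UMIs in GTML_SOX9GFP. Olfr827 was highest in fGTS2 with 310 UMIs over 4498 barcodes, against 2 UMIs over 4645 barcodes in GTML_SOX9GFP. The sums take in all deposited barcodes, doublets were not called, and the part of free RNA was not tested. In the source GTS2 against GTML3 under DMSO, 15.9% of all regions were called higher and 19.7% lower. Of the 10 ATAC regions beside Olfr827, 2 were higher and 2 lower there, near those shares. All 10 lay between Olfr827 and Neurod4, and the 2 described next were nearer to Neurod4, at 26355 and 16983 bases. The one 42771 bases from Olfr827, chosen after its values were seen, had 48.9 and 58.5 CPM in GTS2 and 1.72 and 2.39 CPM in GTML3 under DMSO. The one 52143 bases from Olfr827 had 0 and 1.81 CPM in GTS2 and 14.9 and 16.2 CPM in GTML3 under DMSO. The labels do not tie fGTS2 to that source.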

How the data were processed

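The authors deposited ATAC values as CPM per region and library, with region names that give the neighbouring genes, RNA values of the lines and tumors as log2 CPM, and single-cell tables as UMI counts per gene and cell, as the file headers and values show. Whole reads were recovered from the CPM (tolerance 0.05), and 1 line per table that names no region was left out. The submitters' processing notes name Bowtie2, MACS2, STAR, Subread, edgeR, limma, Cell Ranger and Seurat, with mm9 and mm10, and no roles.

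Differences were tested with limma 3.58.1 in R 4.3.3 on log2(CPM + 1) over all regions, or on the deposited log2 CPM over all genes, with Benjamini-Hochberg adjustment at 0.05. CPM had been planned for the RNA. The planned limma test without weights made too many false calls in shallow libraries on simulated reads. Weights proportional to library reads were therefore added before calls were examined; in GTML3 under DOX the weighted test still made more false calls than the limit first set, and that limit was then loosened. edgeR 4.0.16 and DESeq2 1.42.0 on recovered reads were alternatives. UMIs were summed over all deposited barcodes with no doublet removal or further filter, and 6 barcodes were shared by both libraries. Tumor tests had the number in the column names as batch; its mean had already been removed from the deposited values, and tumor depth is unknown.

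Regions were named from the 10 with the highest mean CPM, up to 4 with the largest difference in each direction per comparison among those called without overlap between libraries, and up to 8 within 1 kb of a receptor start; the other regions at receptor starts and those beside Vmn2r118 were named after their values were seen. The members and gene lists were chosen with earlier results of these data known. Replicates may be technical, since the labels do not say that they came from separate cultures or animals. Same-numbered replicates did not deviate together.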

Additional observations from a re-analysis of the deposited data

Results flagged for a closer look

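The DOX response differed between preGTS1 and GTML3 at 5 member regions, by limma's test of the difference (preGTS1 minus GTML3, log2 scale). The difference was 4.58 (adjusted p 0.00355) for the region 28155 bases from Olfr1402, 3.98 (adjusted p 0.0234) for the region 19857 bases from Kcnab1 and -3.50 (adjusted p 0.0113) for the region 29073 bases from Olfr827. It was 0.68 (adjusted p 0.0157) for the region 1114 bases from Crlf2 and 0.56 (adjusted p 0.00825) for the region 13121 bases from Vmn2r123. Without library weights 0 of the 5 passed.

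In RNA of the lines, 6 of the list genes named by the rule had opposite responses to DOX in every sample of the lines, and the difference was not tested. The log2 difference was 1.40 in preGTS1 and -0.70 in GTML3 for Ebf3, 1.31 and -0.36 for Neurod1, 0.96 and -1.80 for Nfib, 0.32 and -0.32 for Reep1, 2.01 and -0.63 for Zic2, and -0.80 and 1.05 for Setdb2. Atrx, outside that rule and chosen after its values were seen, had -0.54 in preGTS1 and 0.42 in GTML3, also without overlap between samples.

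In 2 of 42 groups of tumor values, 1 GTML tumor stood far from the rest, and chance alone marks about 1 in 20 groups. Olfr70 was lowest at -2.26 log2 CPM, with the next tumor at -0.58, and Vmn2r118 was highest at 3.18, with the next at -0.11.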

How the results depend on the processing

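Counts of called members moved most with the fit. For DOX in GTML3 the count was 2, against 21 with edgeR, 10 with DESeq2 and 16 without library weights, and for DOX in preGTS1 it was 169, against 72 with DESeq2, 22 without weights and 73 among regions of at least 5 CPM. That filter, which tests fewer regions, left 84 for preGTS1 against GTML3, 94 for GTS1 against GTML3, 103 for GTS2 against GTML3 and 102 for GTS1 against GTS2. The difference between DOX responses gave 8 with a pseudocount of 2, 3 with the filter, 3 with centred libraries and 0 without weights. Tumors gave 1 receptor or list gene (Lmna) without the batch term. Counts over all regions are not set beside the alternative fits in this paragraph, so they do not tell members from other regions. Causes were not tested.

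The median of members minus matched regions was -0.35 and -0.19 at pseudocounts of 0.5 and 2 for preGTS1 against GTML3, -0.16 and -0.092 for GTS1 against GTML3, -0.17 and -0.093 for GTS2 against GTML3, -0.11 and -0.058 for GTS1 against GTS2 and 0.094 and 0.054 for DOX in preGTS1, and 0.041 at 2 for the difference between DOX responses. With the CPM filter these medians were, in the same order, -0.26, -0.20, -0.12, -0.23, 0.14 and 0.15, with edgeR -0.40, -0.26, -0.15, -0.076, 0.13 and 0.051, and for DOX in GTML3 0.033 and 0.0099. DESeq2 gave -0.43, -0.28, -0.16, -0.077 and 0.13 for the first 5. Without weights they were -0.27 for preGTS1 and -0.17 for GTS1 against GTML3 and 0.071 for the difference between DOX responses. With both neighbours receptors they were -0.43, -0.32 and -0.26 against GTML3, 0.033 for DOX in preGTS1 and 0.043 for the difference between responses. Within 50 kb of a receptor start they were -0.31 for preGTS1 and -0.14 for GTS1 against GTML3, -0.070 for GTS1 against GTS2 and 0.065 for DOX in preGTS1.

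The log2 ratio of shares, for regions with both neighbours receptors and for those within 50 kb of a receptor start, was -0.34 and -0.17 for preGTS1 against GTML3, -0.54 and -0.15 for GTS1 against GTML3, -0.36 and -0.18 for GTS2 against GTML3, -0.17 and 0.027 for GTS1 against GTS2, -0.054 and 0.057 for DOX in preGTS1 and 0.042 and -0.011 for DOX in GTML3. Without the region at Crlf2, an alternative chosen after seeing the data like the unweighted fit, the first 3 were -0.24, -0.32 and -0.17.

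Leaving out 1 library at a time gave 0 to 3 calls for DOX in GTML3, 113 to 170 for DOX in preGTS1, 100 to 151 for preGTS1 against GTML3 (100 without GTML3 DMSO replicate 1), 122 to 176 for GTS1 against GTML3, 127 to 186 for GTS2 against GTML3, 127 to 195 for GTS1 against GTS2 (127 without GTS2 replicate 2), 1 to 5 for the difference between DOX responses and 7 to 17 for GFP (7 without GFP replicate 2). Heterochromatin calls were 27 to 29 in GTML3 and 28 to 29 in preGTS1. The medians lay between 0 and 0.00101, 0.0299 and 0.0936, -0.288 and -0.211, -0.176 and -0.0645, -0.145 and -0.0515, -0.159 and -0.0251, 0.0170 and 0.0857, and 0.0295 and 0.0641, in the same order. For Vmn2r1 RNA in preGTS1 the difference lay between -0.11 and 0.36, turning to -0.11 without DMSO replicate 3 and to -0.02 without DOX replicate 3. Replicate numbers did not pair the samples (correlations -0.00712 to 0.00694 in ATAC and -0.154 to 0.0684 in RNA). A fit with the replicate block called 3, 159, 149, 182, 193, 201, 5 and 18 members in the order of the comparisons above, and moved the median to -0.14 for GTS1 and -0.13 for GTS2 against GTML3 and to -0.061 for GTS1 against GTS2. Among single regions and genes, 1886 values kept their direction and side of the threshold, 64 lost the threshold, 1 gained it, 3 moved and 2 reversed. Depth limits the GTML3, GTS2 and second GTS1 libraries, where 17% to 28.4% of members had 0 reads.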
